A study of Bos taurus with 48 samples.

Results

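The microRNAs of the miR-199 and miR-214 group were followed in small RNA libraries from mammary parenchyma, mammary fat pad and liver of cattle (Bos taurus). They were taken from the table by name, as every row that starts with bta-miR-199a or bta-miR-199b and the row bta-miR-214, which gave 5 of 524 rows: bta-miR-199a-1-3p, bta-miR-199a-1-5p, bta-miR-199a-2-3p, bta-miR-199b and bta-miR-214. The table does not name the arm of bta-miR-199b or bta-miR-214, and no mature sequences were at hand to compare, so whether bta-miR-199b shares reads with miR-199a-3p was not tested. Parenchyma, the part of the gland with the epithelial ducts, had 6 samples of the ad libitum group, 6 of the restricted group and 3 controls. The numbers for the surrounding fat pad were 6, 6 and 4 in the same order, and those for the liver 6, 6 and 5. The animals of the first group had milk replacer ad libitum, those of the second a restricted amount of it, and the third is labelled control. Tissue was taken at slaughter, and age, breed and the control diet are not stated in the labels. The labels do not say whether each sample came from a separate animal, so p-values measure the spread between these samples.

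Mature miRNAs guide a silencing complex to mRNAs with matching sites, and each hairpin precursor can give a miRNA from its 5′ arm, its 3′ arm or both. In human and mouse, a miR-199a hairpin and the miR-214 hairpin are cut from 1 long non-coding RNA, DNM3OS, which runs antisense within the dynamin gene DNM3. This transcript is known from mesenchymal cells, where the transcription factor TWIST1 drives it in mouse, and both miRNAs are known from fibroblasts and from activated stellate cells of the liver. The bovine arrangement was looked up by name in the RefSeq annotation of the ARS-UCD2.0 assembly. There, MIR199A-1 and MIR214 both lie within DNM3 and within 1 long non-coding RNA without a gene name. MIR199A-2 lies within DNM2 and MIR199B within DNM1, so each hairpin of the group is in a dynamin gene, but not in the same one.

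The 5 rows are treated as 4 members. The rows bta-miR-199a-1-3p and bta-miR-199a-2-3p name the same arm of 2 gene copies, and their values moved as 1: the second was 0.950 to 0.982 times the first in the 48 libraries, with a median of 0.967. Reads of these copies cannot be told apart, so bta-miR-199a-1-3p is given below as miR-199a-3p and its copy is not counted as further evidence. The row bta-miR-199a-1-5p is given as miR-199a-5p. The deposited values are read counts after division by a size factor of each library, called normalized read counts here. The lowest value of any member in any library corresponded to 140 reads, and all 5 members passed the filter on low values in every fit, so none was near the limit of detection.

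The tissue labels were checked against markers of cell types. In liver the summed level of 3 hepatocyte miRNAs (miR-122, miR-192 and miR-194) was 883099 to 1630009, against 2918 to 11810 in parenchyma. In the fat pad the summed level of 7 adipocyte-linked miRNAs was 46239 to 126336, against 11012 to 26170 in parenchyma of the milk replacer groups and 98922, 97308 and 23130 in control parenchyma replicates 1, 2 and 18. The 10 epithelial miRNAs with a row, of 11 listed, summed to 61371 to 110903 in the 12 milk replacer parenchyma samples. The 3 control parenchyma samples went against their label: the same sum was 421, 92.5 and 291 in replicates 1, 2 and 18, within the fat pad range of 17.4 to 436, and miR-429 and miR-375 were listed at 0 in all 3. Replicate 18 further had 96491 for the sum of 6 immune miRNAs, against 2472 to 6241 in the milk replacer parenchyma. The members' differences between parenchyma and the other tissues are therefore given with and without these samples. Estimated reads assigned to miRNAs were 6193678 to 11291532 in parenchyma, 2123962 to 9522666 in the fat pad and 826776 to 5146724 in the liver.

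All 4 members were high in the mammary tissues and lower in the liver. Counting miR-199a-3p once, the 4 members took 8.00% ± 0.88 of all normalized reads in parenchyma of the milk replacer groups (SD, n = 12) and 5.48% ± 0.47 in their fat pad (n = 12), against 1.53% ± 0.37 in their liver (n = 12). In control parenchyma the share was 4.47% ± 1.73 (n = 3). Whether reads of the copies of miR-199a-3p were split between their rows or counted for each is not stated. With both rows summed, the shares of the milk replacer groups were 12.4% in parenchyma, 8.87% in the fat pad and 2.51% in the liver. That of control parenchyma was then 6.36%. Within the group, miR-199a-3p was the most abundant row in each tissue and ranked 6th of all miRNAs by mean level in both mammary tissues and 18th in the liver. At the other end, bta-miR-214 ranked 80th, 76th and 143rd. Read counts of different miRNAs also depend on how well each sequence takes the adaptors, so levels are compared here between tissues and not between sequences.

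**Figure D1:**
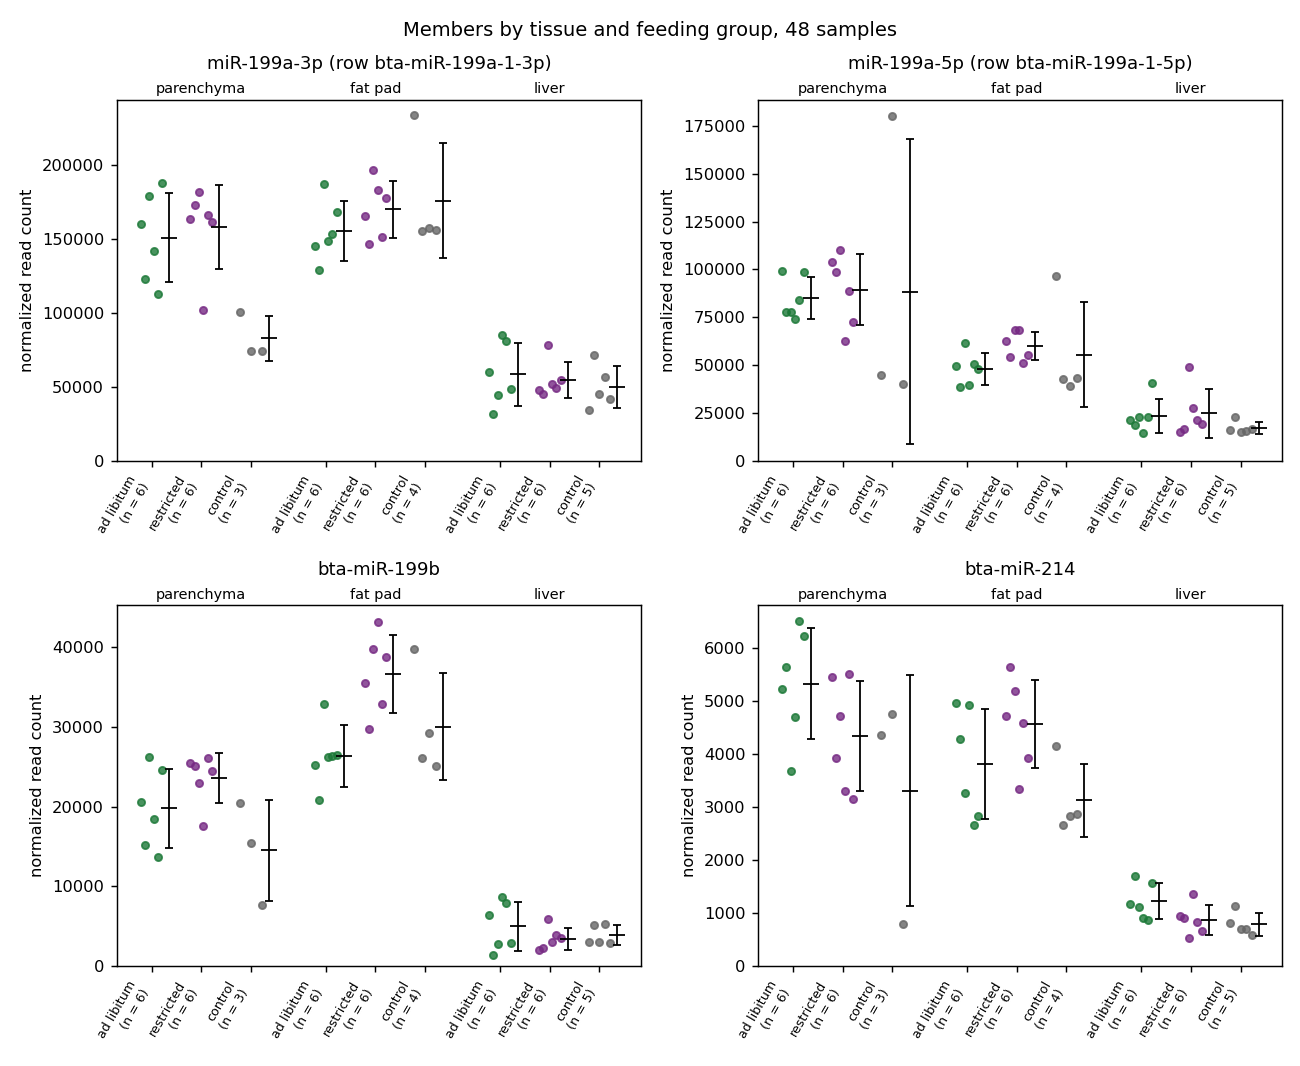
Normalized read counts (vertical axes, linear from 0) of miR-199a-3p, miR-199a-5p, bta-miR-199b and bta-miR-214 in each of 48 samples, by tissue and feeding group; 1 point per sample, with black bars for the mean ± SD. The 3 liver groups have the lowest means in each panel, though single liver values reach into the control parenchyma samples, and the 3 control parenchyma samples lie below all other parenchyma samples for miR-199a-3p (73939 to 100293, against a lowest value of 101516 in the others).

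The first question was in which tissue the members were higher. miR-199a-3p had normalized read counts of 73939 to 187304 in parenchyma (median 160049), 128609 to 233764 in the fat pad (median 156600) and 31357 to 85124 in the liver (median 48983). miR-199a-5p had 39984 to 180195 in parenchyma (median 83784), 38362 to 96550 in the fat pad (median 50664) and 14547 to 49170 in the liver (median 19175). By median the 3p arm was nearly the same in the mammary tissues, and the 5p arm was higher in parenchyma. The highest single values were those of control fat pad replicate 2 for the 3p arm and control parenchyma replicate 2 for the 5p arm. bta-miR-199b had 7736 to 26179 in parenchyma (median 20583), 20812 to 43140 in the fat pad (median 29472) and 1413 to 8635 in the liver (median 3065). bta-miR-214 had 803 to 6496 in parenchyma (median 4707), 2657 to 5629 in the fat pad (median 4032) and 524 to 1704 in the liver (median 909). For bta-miR-214 the mammary tissues overlapped over most of their range, and the lowest value of parenchyma was that of control replicate 18.

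Against the liver, every member was higher in both mammary tissues. Differences are on the log2(value + 1) scale, from limma over all miRNAs with a mean of at least 10, with an adjusted p (Benjamini-Hochberg) under 0.05 as the call. Between fat pad and liver, bta-miR-199b differed most of the members, by 3.05 ± 0.19 (SE; adjusted p = 5.9e-17), which is 8.26-fold. bta-miR-214 was 4.11-fold higher in the fat pad (2.04 ± 0.15, adjusted p = 9.2e-15), miR-199a-3p 3.13-fold (1.65 ± 0.11, adjusted p = 2.1e-15) and miR-199a-5p 2.55-fold (1.35 ± 0.15, adjusted p = 3e-10). Of all 325 miRNAs tested in this comparison, 41.2% were called higher in the fat pad, so a call alone does not set the members apart; the median log2 difference over all 325 was 0.20. miR-199a-3p, its copy, bta-miR-199b and bta-miR-214 had every fat pad value above every liver value, which held for 13.8% of the 325.

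Between parenchyma and liver the order of the members was the same at the top but not below it. bta-miR-199b was 5.25-fold higher in parenchyma (2.39 ± 0.21, adjusted p = 6.2e-12), bta-miR-214 4.51-fold (2.17 ± 0.21, adjusted p = 6.4e-11), miR-199a-5p 3.98-fold (1.99 ± 0.18, adjusted p = 7.1e-12) and miR-199a-3p 2.56-fold (1.35 ± 0.15, adjusted p = 1.6e-09). Of 343 miRNAs, 44.9% were called higher in parenchyma (154, with 102 lower; 200 and 65 when each library was rescaled to the same total), with a median of 0.36. Without the 3 control parenchyma samples the 4 differences were larger, at 2.52, 2.35, 2.06 and 1.53. In the milk replacer samples alone, all 5 members had every parenchyma value above every liver value, as did 27.1% of the 343 miRNAs. In bulk tissue, fewer cells of a type and less RNA per cell cannot be told apart, so these values are per tissue and not per cell.

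**Figure D2:**
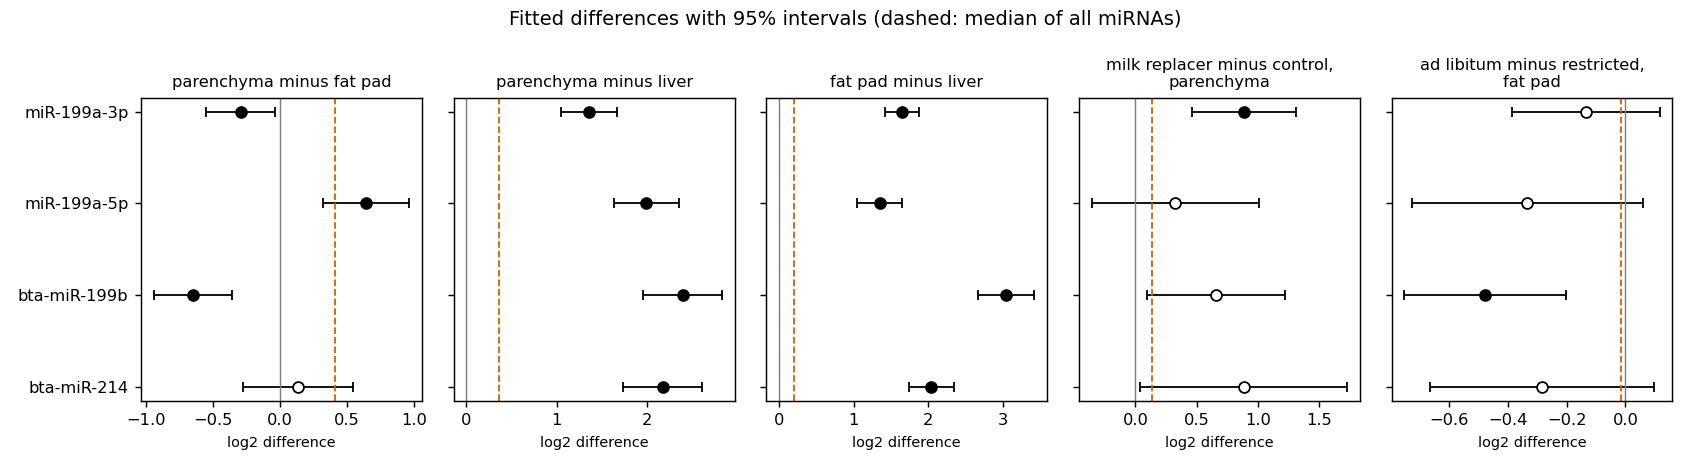
Fitted log2 differences (horizontal axes, first-named group minus second) of the 4 members in 5 comparisons; points are limma estimates with 95% intervals, filled where the adjusted p is under 0.05, and the dashed line is the median of all miRNAs tested. All 4 points lie right of that line against the liver, while between parenchyma and fat pad miR-199a-5p (0.64) and bta-miR-199b (-0.65) lie on opposite sides of 0.

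Between the 2 mammary tissues the arms of miR-199a parted. miR-199a-5p was higher in parenchyma by 0.64 ± 0.16 (1.56-fold, adjusted p = 0.00052), while bta-miR-199b was lower by a log2 difference of -0.65 ± 0.14 (adjusted p = 0.000144). miR-199a-3p was slightly lower in parenchyma (-0.29 ± 0.13, adjusted p = 0.0369), and its copy likewise (-0.28, adjusted p = 0.0426). For bta-miR-214 the difference was 0.13, with a 95% interval of -0.28 to 0.54 and an adjusted p of 0.557. Of 336 miRNAs tested, 46.7% were called higher and 31.2% lower in parenchyma (157 and 105), so the mammary tissues differed in most miRNAs.

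The 5p result was called under each of the 8 alternatives tried, with differences of 0.64 to 1.08, and the 3p result was not. Without the 3 control parenchyma samples the 3p difference was -0.12 (adjusted p = 0.25), and without all control samples it was -0.092. Without the 3 samples, miR-199a-5p (0.71, adjusted p = 2.9e-06) and bta-miR-199b (-0.52, adjusted p = 0.00018) kept their calls, and bta-miR-214 passed (0.31, adjusted p = 0.0398). Rescaling each library to the same total moved the median of all miRNAs from 0.41 to 0.84 (188 called higher and 67 lower) and turned the 3p difference to 0.14 (adjusted p = 0.345). Under that scaling bta-miR-199b no longer passed (-0.21, adjusted p = 0.167), and bta-miR-214 did (0.57, adjusted p = 0.0194). Rescaling shifts all miRNAs nearly alike, so the distance to their median is fixed by construction: relative to it miR-199a-3p lay at -0.71, bta-miR-199b at -1.06, bta-miR-214 at -0.28 and miR-199a-5p at 0.23. Without control parenchyma replicate 18 alone, the bta-miR-214 difference was 0.30 (adjusted p = 0.037).

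Ratios within a library do not depend on its size factor, and they are given as a description with no test. The log2 ratio of miR-199a-5p over miR-199a-3p was -0.81 ± 0.22 in parenchyma of the milk replacer groups (SD, n = 12), -1.61 ± 0.16 in their fat pad (n = 12) and -1.27 ± 0.61 in their liver (n = 12). The parenchyma values (-1.20 to -0.43) and the fat pad values (-1.90 to -1.40) did not overlap. How many other ratios were as separate was not counted. Of 336 single miRNAs, 33.3% did not overlap between these samples. On the linear scale the 5p arm had 0.575 reads per read of the row bta-miR-199a-1-3p in this parenchyma, against 0.330 in the fat pad. Both values would be lower if reads of the 3p arm were split between its copies. The liver spread over both, at -2.55 to -0.26. Control parenchyma replicates 1 and 18 had -1.16 and -0.89, but replicate 2 had 1.28, the only 1 of 48 libraries with more reads on the 5p arm.

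bta-miR-199b followed a different order against miR-199a-3p. Its log2 ratio was -2.83 ± 0.16 in milk replacer parenchyma (n = 12), -2.39 ± 0.19 in the fat pad (n = 12) and -3.89 ± 0.45 in the liver (n = 12). Every milk replacer parenchyma value (-3.04 to -2.53) was above every liver value of these groups (-4.58 to -3.20). Of 343 single miRNAs, 40.2% did not overlap between these samples, and other ratios were not counted. The share of bta-miR-199b relative to miR-199a-3p was thus highest in the fat pad and lowest in the liver. For bta-miR-214 over miR-199a-3p the means were -5.01 ± 0.45 in milk replacer parenchyma, -5.31 ± 0.44 in the fat pad and -5.76 ± 0.82 in the liver, with overlapping ranges. This ratio spread from -7.22 to -3.96 over the 48 libraries. A miR-199a hairpin and the miR-214 hairpin share a host gene, but miR-199a-3p may also hold reads of the copy in DNM2. The ratio therefore does not measure the output of the shared host.

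**Figure D3:**
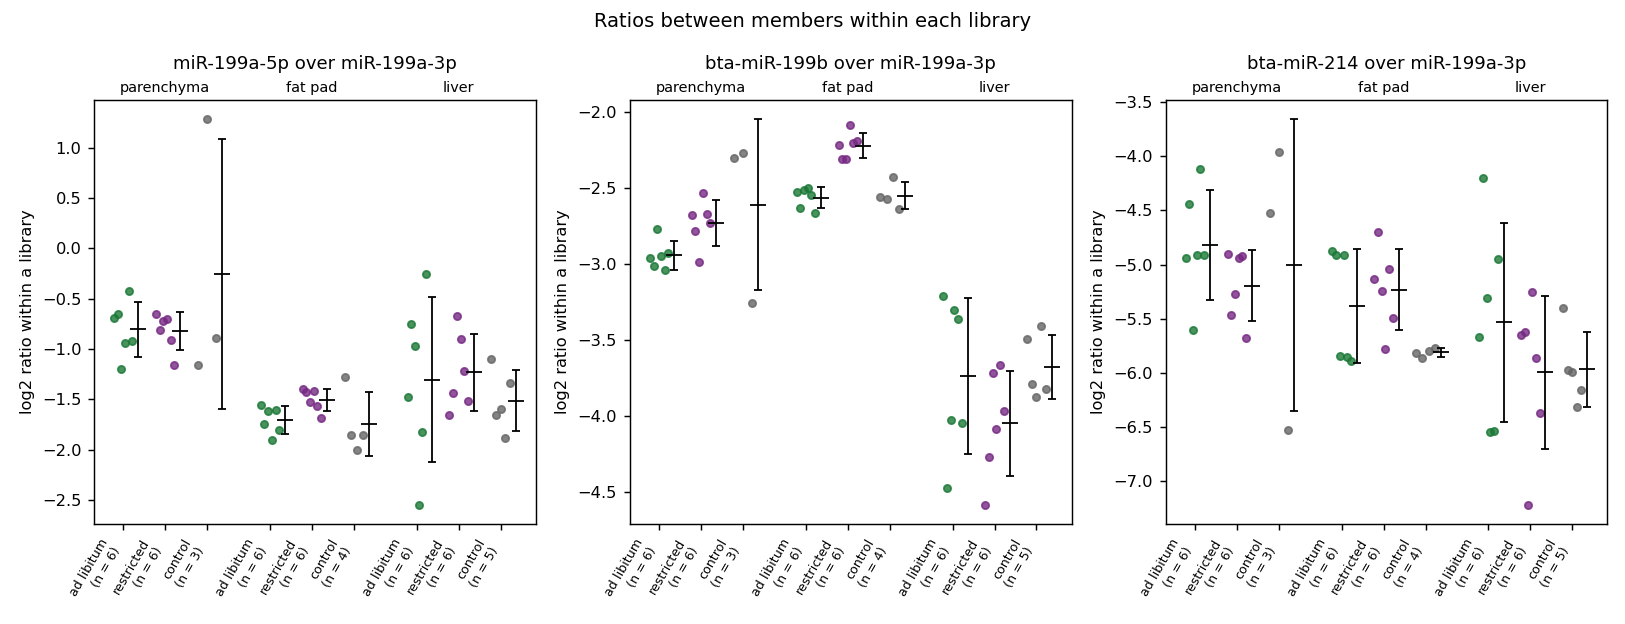
Log2 ratios between members within each of 48 libraries (vertical axes), by tissue and feeding group; 1 point per library, with black bars for the mean ± SD. The 5p over 3p ratio is higher in milk replacer parenchyma (-1.20 to -0.43) than in milk replacer fat pad (-1.90 to -1.40). Within the fat pad bta-miR-199b over miR-199a-3p is higher in restricted (-2.31 to -2.08) than in ad libitum samples (-2.66 to -2.50). How many other ratios separate these groups was not counted.

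The next comparisons asked whether feeding with milk replacer went with other levels than the control. In parenchyma, miR-199a-3p was higher in the milk replacer groups, while the other 3 members did not pass the threshold. miR-199a-3p had 112694 to 187304 in ad libitum samples (median 150779) and 101516 to 181301 in restricted samples (median 164528), against 100293, 73954 and 73939 in control replicates 1, 2 and 18. The highest control value (100293) lay just under the lowest of the 12 milk replacer values (101516). How many of all miRNAs had groups as separate as these was not counted. The difference was 0.89 ± 0.20 (1.85-fold, adjusted p = 0.00135), and that of its copy 0.89 (adjusted p = 0.00134). Of 339 miRNAs, 30.1% were called higher (102, with 52 lower; 122 and 35 after rescaling), with a median of 0.13.

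In the same comparison bta-miR-199b had 13746 to 26179 in ad libitum (median 19496) and 17545 to 26069 in restricted samples (median 24749), against 20407, 15390 and 7736 in the control replicates. The difference was 0.66 ± 0.27 (adjusted p = 0.054). bta-miR-214 had 3669 to 6496 in ad libitum (median 5423) and 3153 to 5496 in restricted samples (median 4311), against 4358, 4746 and 803 in the controls, a difference of 0.88 ± 0.40 (adjusted p = 0.0837). Here replicate 18 set the value: without it the difference was 0.049 for bta-miR-214 and 0.26 for bta-miR-199b. For miR-199a-5p the control replicates had 44844, 180195 and 39984, and the difference of 0.33 ± 0.32 (adjusted p = 0.435) was 1.02 (adjusted p = 0.00093) without replicate 2. After rescaling, bta-miR-199b (0.99, adjusted p = 0.0016) and bta-miR-214 (1.22, adjusted p = 0.0146) passed as well.

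Beside these values stand the markers of other cell types given above. The 2 endothelial miRNAs summed to 52569 to 106702 in milk replacer parenchyma, against 172748 to 426786 in the 3 control samples, the 7 adipocyte-linked miRNAs to 11012 to 26170, against 98922, 97308 and 23130, the first 2 within the fat pad range, and the 15 other stromal and smooth muscle miRNAs to 776568 to 1194313, against 1071620 to 1601344. Feeding and tissue makeup cannot be told apart in this comparison, since every control parenchyma sample had low epithelial miRNAs.

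In the fat pad and in the liver no member was called between milk replacer and control. In the fat pad the differences were -0.097 for miR-199a-3p, 0.043 for miR-199a-5p, 0.061 for bta-miR-199b and 0.41 for bta-miR-214 (95% interval 0.03 to 0.79, adjusted p = 0.132), where 11.0% of 301 miRNAs were called (22 higher and 11 lower; 36 and 5 after rescaling). In the liver they were 0.17, 0.42, -0.044 and 0.37, with adjusted p of 0.374 to 0.937, where 6.8% of 309 were called (5 higher and 16 lower; 1 and 23 after rescaling). The widest interval was that of bta-miR-199b in the liver, -0.77 to 0.68, so changes of this size were not detectable there.

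Whether the difference between milk replacer and control was unequal between tissues was tested in 1 fit over all 48 samples. For miR-199a-3p the milk replacer difference in parenchyma exceeded that in the fat pad by 0.98 ± 0.28 (adjusted p = 0.00745), a result shared by its copy (1.00, adjusted p = 0.0072) and by 15.9% of 345 miRNAs in this direction (55, with 34 lower; 68 and 24 after rescaling). Against the liver it exceeded by 0.72 ± 0.28 (adjusted p = 0.0342), as did 23.2% of the 345 (80, with 59 lower; 109 and 28 after rescaling). This second call was lost without control parenchyma replicate 2 (adjusted p = 0.0961) or 18 (0.0863), or control liver replicate 2 (0.0976) or 19 (0.0655). Both tests rest on the 3 control parenchyma samples described above. Between fat pad and liver no member was called, against 11.3% of the 345 (33 higher and 6 lower; 51 and 0 after rescaling).

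The other feeding comparison set ad libitum against restricted feeding, where the control samples are not compared. In the fat pad bta-miR-199b was lower in ad libitum samples. It had 20812 to 32856 in ad libitum fat pad (median 26267), against 29679 to 43140 in restricted fat pad (median 37146). The groups overlapped in 3 samples: the highest ad libitum sample (32856) lay above 2 restricted samples (29679 and 32845). The log2 difference was -0.48 ± 0.13 (adjusted p = 0.0209), and it passed under each of 6 alternatives (-0.53 to -0.33, adjusted p 0.0149 to 0.0419) and with each of the 16 samples left out. Of 301 miRNAs, 6.98% were called lower in ad libitum fat pad (21, with 29 higher; 14 and 38 after rescaling), with a median of -0.015. The other members were also at negative differences that did not pass: -0.13 for miR-199a-3p, -0.33 for miR-199a-5p and -0.28 for bta-miR-214. After rescaling, that of miR-199a-3p was 0.012 and that of bta-miR-199b -0.33.

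The log2 ratio of bta-miR-199b over miR-199a-3p separated the 2 groups of the fat pad, with -2.66 to -2.50 in ad libitum and -2.31 to -2.08 in restricted samples. In control fat pad it was -2.56, -2.57, -2.43 and -2.64 in replicates 2, 18, 19 and 21, near the ad libitum samples. In parenchyma it ranged from -3.04 to -2.77 in ad libitum and from -2.98 to -2.53 in restricted samples, and 4 of 6 restricted values lay above every ad libitum value. In the liver the ratio ranged from -4.47 to -3.20 in ad libitum and from -4.58 to -3.66 in restricted samples, so the groups overlapped there. No library size enters this ratio, and no test was made of it. How many other ratios separate the 2 groups of the fat pad was not counted. bta-miR-199b is also the only member called in that contrast, so its ratio is not separate evidence.

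Elsewhere, ad libitum and restricted feeding gave no call for a member. In parenchyma the differences were -0.068 for miR-199a-3p, -0.050 for miR-199a-5p, -0.28 for bta-miR-199b and 0.30 for bta-miR-214, each with an adjusted p of 0.98, where limma called 0% of 339 miRNAs and none had an unadjusted p under 0.05. That is fewer than chance alone would give, so the lack of calls does not show that the groups were alike. The spread of this fit included the control parenchyma samples. A fit of only the ad libitum and restricted samples also called 0 of 333 miRNAs. In the liver bta-miR-214 had 872 to 1704 in ad libitum samples (median 1149), against 524 to 1359 in restricted samples (median 876), a difference of 0.50 with a 95% interval of -0.01 to 1.02 (adjusted p = 0.733). bta-miR-199b differed by 0.36 in the liver (interval -0.43 to 1.15), and 0.324% of 309 miRNAs were called there. The difference between tissues in this contrast was 0.20 for bta-miR-199b in parenchyma against fat pad (adjusted p = 1.00) and -0.83 in fat pad against liver (adjusted p = 0.586). limma called 0% of 345 miRNAs in both, with 11 and 28 at an unadjusted p under 0.05, so the fat pad result of bta-miR-199b was not shown to differ from the other tissues.

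By mean level over the 9 tissue and feeding groups, miR-199a-3p ran from control fat pad (175439 ± 38896, n = 4) through restricted fat pad (169907), restricted parenchyma (157666), ad libitum fat pad (155062) and ad libitum parenchyma (150410) to control parenchyma (82729) and the 3 liver groups (58339 in ad libitum, 54347 in restricted and 49737 in control). Neighbours in this order overlapped in range, apart from ad libitum parenchyma and control parenchyma. For bta-miR-199b the 3 fat pad groups led (36615 ± 4910 in restricted samples, n = 6), and for bta-miR-214 ad libitum parenchyma did (5320 ± 1042, n = 6).

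Members were then compared with each other across the samples of 1 tissue. miR-199a-3p and bta-miR-199b moved together in all 3 tissues. Their hairpins lie in different genes, but whether the rows share reads was not tested. Pearson's r of log2 values was 0.865 in the 12 milk replacer parenchyma samples (permutation test, p = 0.00114, adjusted p = 0.0041; Spearman's rho 0.755, adjusted p = 0.0247), 0.803 in the 16 fat pad samples (permutation, p = 0.0001, adjusted p = 0.00045; rho 0.776, adjusted p = 0.0032) and 0.883 in the 17 liver samples (permutation, p = 1e-05, the smallest these resamples can give, adjusted p = 0.00018; rho 0.877, adjusted p = 0.00036). Without the 2 samples farthest from the median, r was 0.875, 0.787 and 0.813. Adjustment was over 18 relations. The fat pad and liver samples were pooled over the 3 feeding groups, and rows of 1 library share its size factor. The permutations took account of neither.

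bta-miR-214 followed none of the miR-199 rows past the threshold. The row given as miR-199a-3p may hold reads of the copy in DNM2. Its r with bta-miR-214 therefore does not measure the shared host alone. With miR-199a-3p, r was 0.015 in milk replacer parenchyma, -0.047 in the fat pad and -0.254 in the liver (permutation, adjusted p = 0.963, 0.916 and 0.498; rho 0.014, -0.218 and -0.091). With miR-199a-5p it was 0.523, 0.255 and 0.153 (adjusted p = 0.21, 0.498 and 0.628; rho 0.490, 0.271 and 0.265). The arms of miR-199a moved together in the fat pad (r = 0.865, permutation, adjusted p = 0.00027; rho 0.697, adjusted p = 0.0146; 0.703 without 2 samples). In milk replacer parenchyma their r was 0.668 (adjusted p = 0.053; rho 0.559) and in the liver 0.304 (adjusted p = 0.425; rho 0.248). miR-199a-5p and bta-miR-199b had an r of 0.821 in the fat pad (permutation, adjusted p = 0.00045; rho 0.876; 0.804 without 2 samples), against 0.421 and 0.167 in milk replacer parenchyma and liver.

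**Figure D4:**
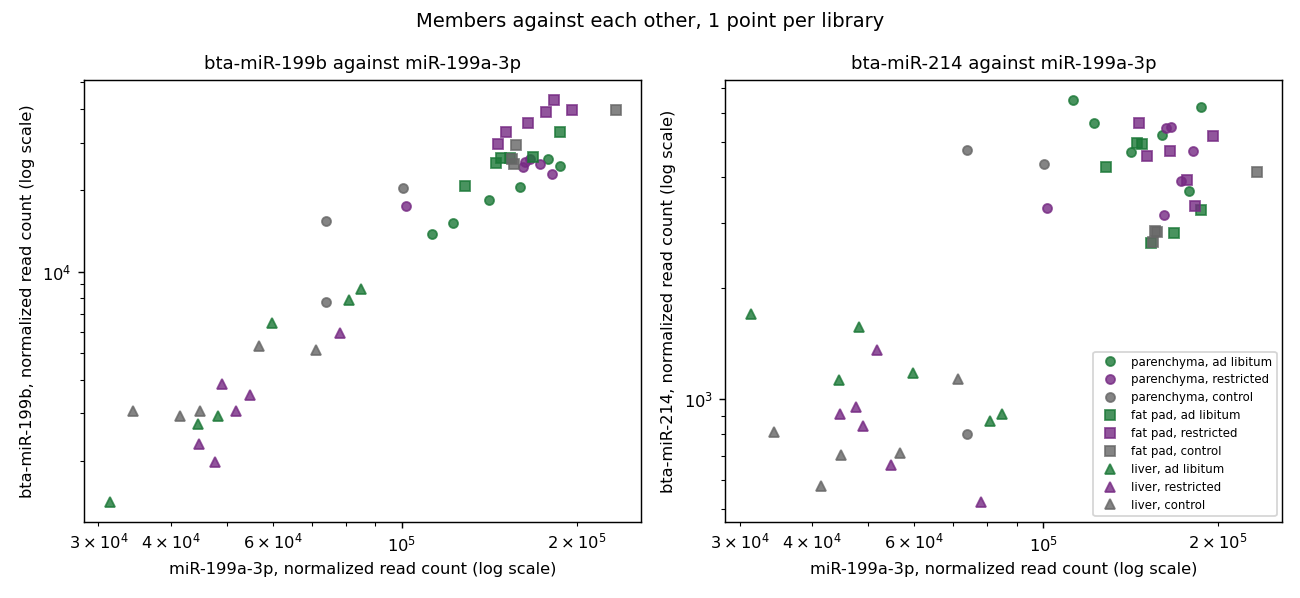
bta-miR-199b (left) and bta-miR-214 (right) against miR-199a-3p, as normalized read counts on log axes, 1 point per library; shape marks the tissue and colour the feeding group. Within each tissue bta-miR-199b rises with miR-199a-3p (r = 0.803 in the fat pad, 0.883 in the liver), while bta-miR-214 does not (-0.047 and -0.254).

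The miRNAs outside the group with the most similar pattern were ranked by Pearson's r among 263 with a mean of at least 50, as a description over libraries that share tissue and size factor. Over the 48 samples, miR-199a-3p was most like bta-miR-199c (0.916), miR-196b (0.904), miR-196a-2 (0.885), miR-196a-1 (0.884) and miR-10b (0.870); miR-196 and miR-10 hairpins lie in the HOX clusters, and miR-196b was listed at 0 in all 17 liver libraries. Once the 9 group means were taken out, bta-miR-199c still led (0.881, beside 0.880 for bta-miR-199b), ahead of miR-450a-2 (0.613), miR-450b (0.587), miR-136 (0.586) and miR-152 (0.584). bta-miR-199c, which the name rule leaves out, has no arm named either, and whether it shares reads with miR-199a-3p was not tested. It had 2925 ± 638 in parenchyma (n = 15), 3808 ± 758 in the fat pad (n = 16) and 1704 ± 735 in the liver (n = 17). In RefSeq its gene MIR199C lies within NUP88.

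The likest rows of bta-miR-214 were others. Over the 48 samples they were miR-125b-1 (0.895), miR-125b-2 (0.894), miR-99a-5p (0.892), miR-196b (0.888) and miR-99a-3p (0.872). After the group means were taken out they were miR-193b (0.778), miR-483 (0.745), miR-125b-1 (0.730), miR-125b-2 (0.728) and miR-487b (0.678), while r with miR-199a-3p was -0.117. The rows of miR-125b are copies that share reads.

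Other miRNAs known from stroma and smooth muscle did not move as 1 block with the group. In the fat pad against the liver 134 of all 325 miRNAs were called higher and 118 lower, with a median difference of 0.20. Of 15 listed, 12 were higher and 2 lower there (median 1.17). In parenchyma against the liver 154 of all 343 were higher and 102 lower. Of the 15 listed, 8 were higher and 4 lower there (median 0.52, beside 0.36). Of the 3 with the highest means, in the fat pad against the liver miR-99a-5p was higher (2.46), miR-27b was lower (-0.58), and miR-143, which is abundant in smooth muscle, differed by -0.19 (adjusted p = 0.147). In parenchyma against the liver miR-99a-5p was higher (2.08), and miR-143 (-0.97) and miR-27b (-1.03) were lower. After rescaling, the counts were 12 and 2 in the fat pad and 11 and 3 in parenchyma. In parenchyma against the fat pad 105 of all 336 miRNAs were lower and 157 higher. Of the 15, 12 were lower and 2 higher (median -0.63, beside 0.41), among them miR-143 at -0.77, miR-99a-5p at -0.38 and miR-27b at -0.44. This depended on the scaling: after rescaling 5 were lower and 3 higher (median -0.20, beside 0.84), and miR-143 (-0.33, adjusted p = 0.0771), miR-99a-5p (0.057) and miR-27b (-0.0044) did not pass, as bta-miR-199b did not.

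The 9 fibrosis-linked miRNAs include some of opposite roles, so counts of higher and lower over this list give no direction for fibrosis. In the fat pad against the liver 3 were higher and 4 lower (median 0.01, beside 0.20 for all miRNAs): miR-21-5p, raised in many fibrotic tissues, was lower by a log2 difference of -2.09, and miR-29a, which represses collagen mRNAs, by -1.87. In parenchyma against the fat pad 5 were higher and 2 lower (median 0.85, beside 0.41), with miR-21-5p at 1.24 and miR-29a at 0.90, and 6 and 2 after rescaling. The level of the miR-199 and miR-214 group, lowest in the liver, was therefore in a different order from miR-21-5p, which averaged 153548 in parenchyma, 58429 in the fat pad and 250753 in the liver. In milk replacer against control parenchyma 102 of all 339 miRNAs were higher and 52 lower. Of the 15 stromal miRNAs, 4 were higher and 5 lower (median -0.39, beside 0.13), with miR-143 at -1.74, miR-27b at -0.52 and miR-99a-5p at 0.28 (adjusted p = 0.301). After rescaling 5 were higher and 4 lower, with miR-143 at -1.40, miR-27b at -0.19 (adjusted p = 0.438) and miR-99a-5p at 0.62 (adjusted p = 0.00554). In ad libitum against restricted fat pad 21 of all 301 miRNAs (6.98%) were lower and 29 higher. Of the 15, 3 were lower and 0 higher (median -0.17, beside -0.015), among them miR-99a-5p (-0.59, adjusted p = 0.0163), and 2 were lower after rescaling.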

How the data were processed

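Small RNA libraries of 48 bovine samples were analysed. The authors ligated adaptors to total RNA and amplified the products by PCR. DESeq2, Trim Galore, FastQC and bcl2fastq are named, with no version, in the submitters' processing notes. The paper names miRDeep2, sRNAbench and UEA sRNA Workbench, a UMD bovine genome and miRBase for its own runs on part of these reads. Which program, genome and database made the deposited table is not stated there or in the labels. Deposited values are counts that the authors had scaled by a size factor, 1 for each library. Each library's values fell on whole multiples of a step of its own, within 0.01, and nothing between 0 and 6 steps was listed, so a miRNA listed at 0 may have had up to 5 reads. The sum of steps estimated the reads. The values were tested as scaled values, and no count test was run on the recovered reads. The deposited columns of the authors' own comparison (fold change, p-value) and its mean were not used.

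limma 3.58.1 (R 4.3.3) was fitted to log2(value + 1) with a mean-variance trend. Only miRNAs averaging at least 10 over the fitted samples entered. P-values were adjusted by Benjamini-Hochberg over all miRNAs of a fit (threshold 0.05), and the fits were tested on simulated data. Tissues were compared without covariates. Feeding was compared within a tissue with 3 group means, and differences between tissues in 1 fit with 9 group means. Correlations used two-sided permutation tests with 100000 resamples in Python 3.11.15. Named miRNAs are the members, at most the 3 most abundant of a marker list, and the 5 rows most like miR-199a-3p and bta-miR-214. The members, lists and comparisons were chosen with earlier results of these data known. No library was a duplicate of another in its group: over 109 pairs within groups, chi-square divided by its degrees of freedom was at least 74.1. Pairs from different groups or tissues were not part of this check. Alternatives were another pseudocount (10), filter (none or 50) and scaling, feeding, reads or the replicate number as further terms, milk replacer samples only, and leaving out each sample. Leaving out the 3 control parenchyma samples together was added after seeing the data. Intervals cover the spread between samples only.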

Additional observations from a re-analysis of the deposited data

Results flagged for a closer look

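In 12 of 40 sets of a member and a group of 4 to 6 samples, 1 sample lay far from the others of its group by Dixon's test; chance gives about 1 in 20, and the sets are not independent, since the members share libraries and the copies of miR-199a-3p share reads. Control fat pad replicate 2 was the highest of its 4 samples for miR-199a-3p (233764), its copy (224840), miR-199a-5p (96550) and bta-miR-214 (4139). Control liver replicate 2 was high for miR-199a-5p (22573), and control parenchyma replicate 2, in a group too small for this test, had the highest miR-199a-5p value of all 48 libraries (180195). Whether these carry the same number because they come from 1 animal is not stated.

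Restricted parenchyma replicate 10 was low for miR-199a-3p (101516), its copy (97812) and bta-miR-199b (17545). Restricted liver replicate 8 was high for miR-199a-3p (78138), its copy (76177) and miR-199a-5p (49170), and ad libitum liver replicate 15 was high for miR-199a-5p (40374). No reason for these values was tested.

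For miR-199a-3p, the difference between milk replacer and control samples was tested for being unequal between tissues, and it was. The difference was larger in parenchyma than in the fat pad by 0.98 for bta-miR-199a-1-3p and 1.00 for bta-miR-199a-2-3p, and larger than in the liver by 0.72 for both rows. The 3 control parenchyma samples on which this rests had low epithelial miRNAs, so feeding and tissue makeup cannot be told apart in it.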

How the results depend on the processing

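For the members, 414 of 430 values under other settings and 2361 of 2400 values with 1 sample left out kept their side of the threshold and, where the main result was called, its direction. The direction of results that were not called was not part of this count, and some of them changed sign. In parenchyma against fat pad, rescaling turned miR-199a-3p to 0.14 and its copy to 0.15, left bta-miR-199b at -0.21 and brought bta-miR-214 past the threshold (0.57). Rescaling also brought bta-miR-199b (0.99) and bta-miR-214 (1.22) past it in milk replacer against control parenchyma, and in the difference of that contrast between parenchyma and liver (1.27 and 1.07). In parenchyma against fat pad, miR-199a-3p and its copy no longer passed with milk replacer samples only (-0.092 and -0.078) or without the control parenchyma samples (-0.12 and -0.11; bta-miR-214 then passed at 0.31), and the copy did not without a filter (-0.28). The title numbers were tried as a replicate block: same-numbered samples correlated above 0.1 in 8 of 14, 5 of 15 and 9 of 16 pairs of tissues' samples and best with their own number in 3, 3 and 5, so the numbers were not taken as a pairing. Samples with the same number carried the same feeding label in each tissue, so these correlations do not settle whether they came from 1 animal. The main fits treated them as separate. With the replicate block miR-199a-3p and its copy were at -0.27 and -0.26 and did not pass; no other member's call changed. Leaving out 1 sample gave -0.33 to -0.23 for miR-199a-3p (10 of 31 fits not called), -0.32 to -0.22 for its copy (13 of 31) and 0.086 to 0.30 for bta-miR-214. In milk replacer against control parenchyma it gave -0.063 to 1.02 for miR-199a-5p, 0.26 to 0.96 for bta-miR-199b (called without control replicate 1, restricted replicate 10 or ad libitum replicate 11) and 0.049 to 1.33 for bta-miR-214 (called without control replicate 1 or 2). The difference of that contrast between tissues ranged over -0.11 to 0.98 for miR-199a-5p (parenchyma against fat pad; called without control parenchyma replicate 2), and over 0.58 to 0.86 for miR-199a-3p and 0.57 to 0.85 for its copy (parenchyma against liver). Counts of all miRNAs called moved by over 1.5 times in the liver for milk replacer (21, and 13 with reads as a term) and ad libitum (1, and 0), and for the milk replacer difference between fat pad and liver (39, and 23 with the block or 24 with other filters). For the difference of ad libitum against restricted between tissues they were 0 and, with a pseudocount of 10, 1 for parenchyma against fat pad and for fat pad against liver, and 1 and, without a filter, rescaled or with the block, 0 for parenchyma against liver. Leaving out 1 library gave 20 to 44 for milk replacer in the fat pad (33 with all; lowest without control replicate 19 or 21), 32 to 58 for ad libitum against restricted in the fat pad (50; lowest without restricted replicate 16), and 9 to 24 for milk replacer in the liver (21; over 1.5 times fewer without control replicates 1, 2, 18 or 21, ad libitum replicates 3 or 11 or restricted replicate 16). It gave 20 to 46 for the milk replacer difference between fat pad and liver (39; over 1.5 times fewer without control liver replicates 1, 2, 18 or 21, control fat pad replicates 2, 19 or 21 or restricted fat pad replicate 5). For ad libitum against restricted in the liver it gave 0 to 1. Control groups held 3 to 5 samples.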
